A study of Mus musculus with 9 samples.

Results

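The 10 genes described here are the hormone and fate genes of enteroendocrine cells: *Neurog3*, *Neurod1*, *Chga*, *Chgb*, *Gip*, *Gcg*, *Cck*, *Sct*, *Tac1* and *Tph1*. They were chosen by symbol, and each was matched to 1 of the 54838 mouse gene identifiers in the deposited RNA-seq tables. The RNA came from small-intestinal organoids, cultures grown from crypts of male *Vil-CreERT2*;*Mettl3* fl/fl mice on the C57BL/6 background, aged 2 to 4 months. METTL3 is the methyltransferase that writes N6-methyladenosine on RNA, and the study asked how its loss leads to epithelial cell death through the kinase RIPK1. All groups carried the same alleles. By the scheme given for such organoids, the vehicle ethanol (EtOH) or 500 nM 4-hydroxytamoxifen (4-OHT) was given for 2 days. The vehicle DMSO or the RIPK1 inhibitor necrostatin-1 (Nec-1) was given for 5 days. The figure legends of the study give Nec-1 at 5 µM, and its methods at 10 µM. The 7 libraries fell into 4 groups, with 1 library of 4-OHT Nec-1 and 2 of each of the others (EtOH DMSO, 4-OHT DMSO, EtOH Nec-1).

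The villin (*Vil*) promoter drives CreERT2 in the intestinal epithelium, so enteroendocrine cells and their precursors lie within its reach. No group of organoids without CreERT2 was given 4-OHT, so the effects of 4-OHT and of the deletion cannot be told apart. *Mettl3* itself stood at 2.70 and 2.71 FPKM (fragment counts corrected for gene length and for the depth of the library) in the EtOH DMSO libraries and at 3.72 and 4.14 FPKM in those labelled 4-OHT DMSO. It was 2.41 and 2.47 FPKM with EtOH Nec-1 and 3.36 FPKM with 4-OHT Nec-1. Gene-level *Mettl3* was therefore not lower under 4-OHT, and limma, a test of differential expression, called it higher in 4-OHT DMSO (log2 change of 0.41 ± 0.10 SE, adjusted p = 0.0231). That call was lost under both other scalings tried (limma adjusted p = 0.0796 and 0.064), in a fit of the 4 DMSO libraries alone (0.0579), and without either EtOH DMSO library (0.0686 and 0.0639) or without 4-OHT DMSO replicate 2 (0.0914). These values pool all exons, whether or not they are floxed, so they do not check the deletion, and groups are named by their labels throughout. Nothing in the labels says whether replicates were separate cultures or mice. Their p-values then measure the spread between these libraries, which may be technical.

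Enteroendocrine cells are scattered secretory cells of the gut epithelium that release peptide hormones or serotonin in response to nutrients. They arise from crypt progenitors that switch on *Neurog3*, which in turn acts through factors such as *Neurod1*. Granins, among them chromogranin A and B, pack the hormones into dense-core granules, and different subtypes make different hormones, for example GIP in K cells, proglucagon in L cells and serotonin in enterochromaffin cells. In bulk RNA, more cells of a type and more RNA per cell cannot be told apart.

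All 10 genes were detected in all 7 libraries. In the EtOH DMSO libraries the order of their levels in FPKM, a scale corrected for gene length, ran from *Gip* and *Chgb* (means of 151 and 137) through *Gcg*, *Cck*, *Chga*, *Sct*, *Tac1*, *Tph1* and *Neurod1* to *Neurog3* (mean of 1.11). *Gcg* and *Cck* were the only neighbours in this order whose libraries overlapped, at 51.7 to 54.8 and 42.4 to 54.6 FPKM. The order was nearly kept under 4-OHT DMSO, where *Cck* stood above *Gcg* with overlapping libraries, and *Neurod1* and *Neurog3* overlapped too. With Nec-1, *Chgb* led: its EtOH Nec-1 libraries overlapped those of *Gip*, and in the 4-OHT Nec-1 library it stood at 302 against 281 FPKM. Together the 10 genes made up 0.0895% and 0.0968% of the summed FPKM with EtOH DMSO, 0.0889% and 0.1% with EtOH Nec-1, 0.192% and 0.220% with 4-OHT DMSO and 0.175% with 4-OHT Nec-1.

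**Figure D1:**
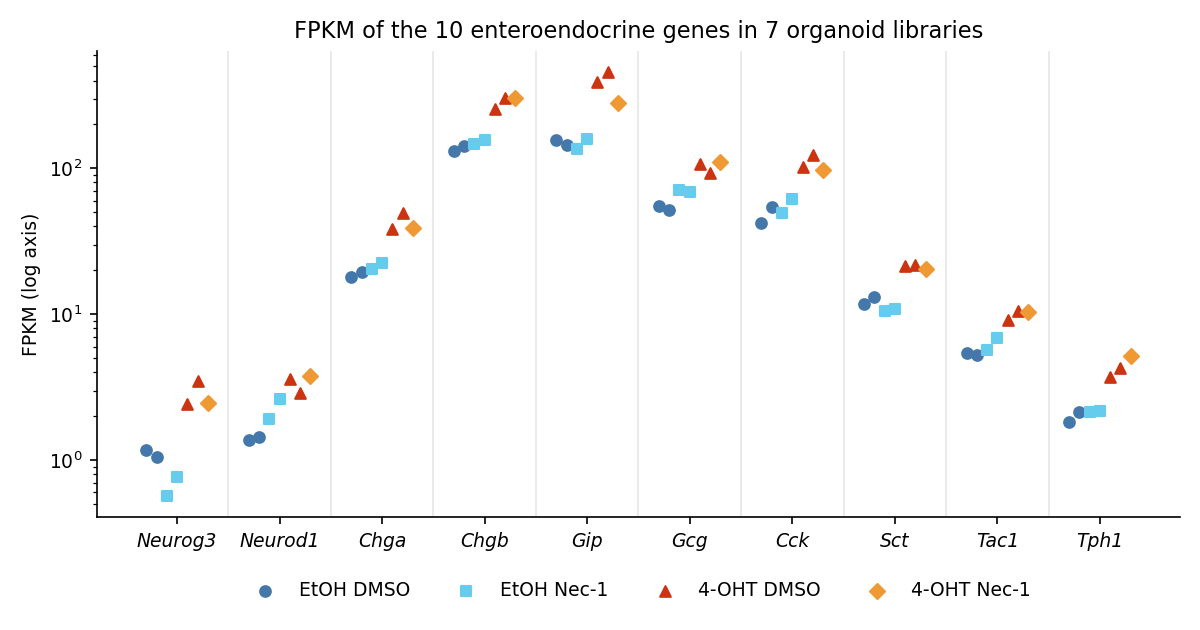
FPKM of the 10 enteroendocrine genes on a log axis, 1 point per library, with blue circles for EtOH DMSO, light squares for EtOH Nec-1, red triangles for 4-OHT DMSO and an orange diamond for the single 4-OHT Nec-1 library. For every gene the 3 libraries labelled 4-OHT sit above the 4 EtOH libraries.

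Every one of the 10 genes rose between the EtOH DMSO libraries and those labelled 4-OHT DMSO. The rise ran from 1.74-fold for *Sct* to 2.81-fold for *Gip* in the ratio of mean FPKM. All 10 passed limma's moderated test on log2(FPKM + 1) at an adjusted p under 0.05, where p-values were adjusted over all 12702 genes tested (at least 1 FPKM in at least 2 libraries). Over all genes 24.5% were called higher, and for 40.7% both 4-OHT DMSO libraries lay above both EtOH DMSO libraries, as they did for all 10 genes. The median log2 change of the 10 was 0.90, against 0.08 over all genes tested. All 10 would have entered the test from their EtOH DMSO values alone.

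The fate factors were the least abundant. *Neurog3*, the transcription factor that commits progenitors to the endocrine lineage, measured 1.17 and 1.05 FPKM with EtOH DMSO and 2.44 and 3.51 with 4-OHT DMSO, a 2.69-fold rise in the means (2.09 to 3.35 over the 4 pairings of libraries). Its fitted log2 change was 0.90 ± 0.17 (SE, n = 2 against 2, adjusted p = 0.0104 by limma), which understates the fold because 1 was added to such low values. *Neurod1*, a factor of later endocrine differentiation, rose from 1.38 and 1.44 to 3.60 and 2.87 FPKM, with a log2 change of 0.81 ± 0.15 (adjusted p = 0.0112, limma). These 2 calls were the least secure: *Neurod1* gave an adjusted p of 0.0551 in limma without the first EtOH DMSO library, and *Neurog3* 0.0535 without the second.

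The granins, which mark most enteroendocrine subtypes, both rose. *Chga* went from 18.0 and 19.4 to 38.2 and 49.6 FPKM, a log2 change of 1.18 ± 0.14 (adjusted p = 0.00276, limma). *Chgb* was several times more abundant and went from 132 and 142 to 257 and 305 FPKM, a log2 change of 1.03 ± 0.11 (adjusted p = 0.00201, limma). The ratio of *Chgb* to *Chga* FPKM was 7.37 and 7.32 with EtOH DMSO, 6.75 and 6.14 with 4-OHT DMSO and 7.73 in the 4-OHT Nec-1 library. The DMSO groups did not overlap in this ratio, and the difference was not tested.

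Among the 5 peptide hormone genes, *Gip*, encoding the incretin GIP, changed the most. It measured 157 and 145 FPKM with EtOH DMSO and 390 and 458 with 4-OHT DMSO, a log2 change of 1.48 ± 0.13 (adjusted p = 0.00113, limma). *Cck*, encoding cholecystokinin, which drives gallbladder contraction and pancreatic enzyme release, rose from 42.4 and 54.6 to 102 and 124 FPKM (log2 change of 1.21 ± 0.18, adjusted p = 0.00505, limma). *Gcg*, whose product is cut to GLP-1 in the gut, rose from 54.8 and 51.7 to 107 and 92.9 FPKM (0.90 ± 0.10, adjusted p = 0.00205, limma). *Sct*, encoding secretin, which stimulates bicarbonate release, rose from 11.8 and 13.1 to 21.5 and 21.8 FPKM (0.76 ± 0.08, adjusted p = 0.00228, limma). *Tac1*, encoding the tachykinin substance P, rose from 5.46 and 5.28 to 9.19 and 10.5 FPKM (0.77 ± 0.12, adjusted p = 0.00621, limma). In none of these did the groups overlap. *Tph1*, the rate-limiting enzyme of serotonin synthesis outside the brain, rose from 1.82 and 2.14 to 3.69 and 4.30 FPKM (0.74 ± 0.12, adjusted p = 0.00612, limma).

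**Figure D2:**
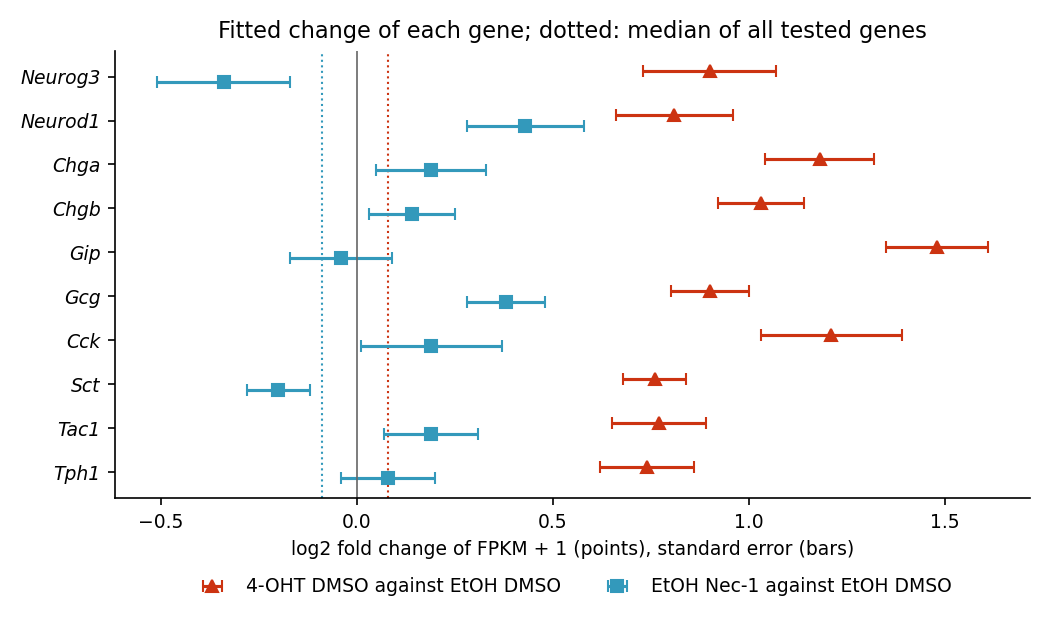
Fitted log2 fold change of FPKM + 1 (horizontal axis, points) with its standard error (bars) for the 10 genes, in red for 4-OHT DMSO against EtOH DMSO and in blue for EtOH Nec-1 against EtOH DMSO, and the median of all tested genes as dotted lines. The red points run from 0.74 (*Tph1*) to 1.48 (*Gip*), while the blue points run from -0.34 (*Neurog3*) to 0.43 (*Neurod1*).

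Because the 5 hormone genes did not rise by the same factor, their proportions differed between libraries. *Gip* took 57.9% and 53.8% of their summed FPKM with EtOH DMSO and 61.9% and 64.8% with 4-OHT DMSO. *Gcg* took 20.2% and 19.2% with EtOH DMSO and 17.0% and 13.1% with 4-OHT DMSO. *Tac1* took 2.01% and 1.96%, then 1.46% and 1.48%, and *Sct* 4.34% and 4.84%, then 3.41% and 3.08%. *Cck* took 15.6% and 20.3%, then 16.2% and 17.5%, with overlap. For the genes other than *Cck* the DMSO groups did not overlap, though 2 libraries against 2 cannot give an exact two-sided permutation p below 0.333. Shares of a common sum move against each other by construction. The 4-OHT Nec-1 library had 54.1% *Gip* and 21.3% *Gcg*, and the EtOH Nec-1 libraries had 49.7% and 51.8% *Gip* and 26% and 22.4% *Gcg*. Against these matched libraries *Gip* was again the higher and *Gcg* the lower under 4-OHT. Against EtOH DMSO, *Gip* lay inside the range and *Gcg* above it.

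**Figure D3:**
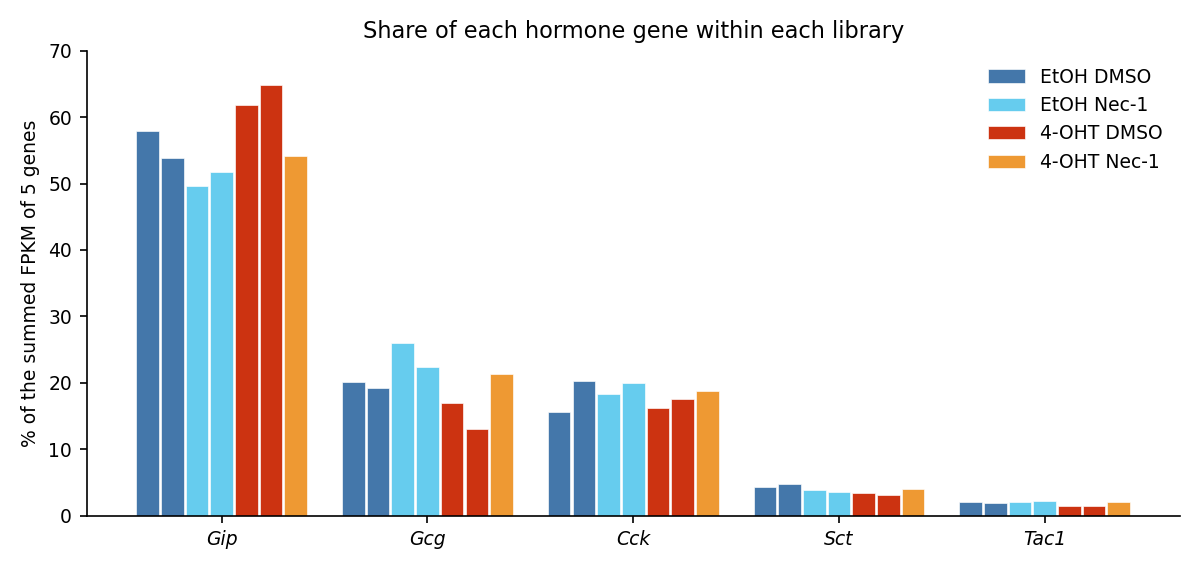
Share of each of 5 hormone genes in their summed FPKM (vertical axis, %), 1 bar per library in the order EtOH DMSO, EtOH Nec-1, 4-OHT DMSO and 4-OHT Nec-1. *Gip* took 61.9% and 64.8% in the 4-OHT DMSO libraries and at most 57.9% in any other library.

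The second library labelled 4-OHT DMSO stood apart in 4 of 10 gastric markers. *Tff1* stood at 80.6 FPKM there, at 6.85 in the first 4-OHT DMSO library and at 0.362 to 1.12 in the other 5. *Gkn2* stood at 20.2 FPKM there and at 0 to 0.0666 elsewhere, and *Tff2* and *Gkn1* were 12.6 and 10 FPKM there. The other 6 were at most 0.324 FPKM in this library. Among them *Gkn3* was lower in both 4-OHT DMSO libraries (0.192 and 0.324 FPKM against 3.09 and 1.98, adjusted p = 0.0035 by limma). The 10 gastric markers summed to 124 FPKM against 8.05 in the other 4-OHT DMSO library. Of the 10 enteroendocrine genes, 8 were higher in this library than in the first one, *Neurod1* and *Gcg* being the exceptions. Without it all 10 were still called, with log2 changes from 0.66 (*Tph1*, adjusted p = 0.0229 by limma) to 1.36 (*Gip*, adjusted p = 0.00261 by limma), the lone library being assumed to vary like the other groups.

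Other cells could also make some of these transcripts, such as enteric neurons (*Tac1*, *Cck*), mast cells (*Tph1*) and pancreatic islets (*Gcg*). Of 10 markers of enteric neurons and glia, 9 were under 1 FPKM in every library, and their sum was 0.932 to 1.88 FPKM. Of 8 mast cell markers, 6 were listed at 0 in every library, including *Cpa3* and *Mcpt1*. Of 7 islet markers, *Ins1*, *Ins2*, *Ppy*, *G6pc2* and *Slc30a8* were listed at 0 in every library, and *Iapp*, which gut endocrine cells can also express, was the only one above 1 FPKM in any.

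Other secretory markers moved in the same comparison. Of 8 goblet cell markers, 7 rose, and their sum went from 1327 and 1419 FPKM at the lowest and highest with EtOH DMSO to 2102 and 2418 with 4-OHT DMSO. Of 7 Paneth cell markers, 5 rose, with sums of 1737 to 2005 and 4973 to 5105 FPKM. Of the 3 tuft cell markers tested, *Avil* was called higher (1 of 3, beside 24.5% of all genes), a call lost under both other scalings, and the 8 tuft markers summed to 8 to 8.81 and 7.25 to 8.76 FPKM. Of 6 stem cell markers, *Lgr5*, *Olfm4* and *Smoc2* fell, and the sum went from 75.0 to 76.4 FPKM down to 47.3 to 69.7. Of 8 enterocyte markers tested, 3 rose (*Apoa1*, *Vil1*, *Anpep*) and 3 fell (*Alpi*, *Sis*, *Fabp2*). All these calls are limma's at an adjusted p under 0.05, and the part of cell composition in the rise of the 10 genes was not tested.

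The promoters of the 10 genes are described because the genes rose together. RefSeq windows of 300 bases around annotated starts (GRCm38.p6) were given for all 10, in 11 promoters, since *Tph1* had more than 1. NEUROG3 and NEUROD1 are basic helix-loop-helix factors, a class that binds E-boxes, CANNTG. This motif, searched on both strands, lay in a promoter of each of the 10 genes and in 72.3% of all 32851 promoters. Its form CAGATG (or CATCTG on the other strand), also a CANNTG, lay in 4 of the 10 genes, *Gcg*, *Cck*, *Sct* and *Tac1*, and in 17.2% of all promoters. The cyclic AMP response element TGACGTCA, whose reverse complement is itself, lay in *Chgb* alone of the 10 and in 1.79% of all promoters, and TATAAA (or TTTATA) lay in *Gcg*, *Sct* and *Chga* and in 13.6% of all. A match describes letters and not binding. The bases upstream of the start are printed 5′ to 3′ on the gene's strand for the 5 promoters with CAGATG or TGACGTCA, which are in capitals. They lie at chr2:62483654-62483903 (minus strand, *Gcg*), chr9:121495695-121495944 (minus strand, *Cck*), chr7:141279175-141279383 (minus strand, *Sct*), chr6:7554811-7555060 (plus strand, *Tac1*) and chr2:132781392-132781641 (plus strand, *Chgb*). Each has 250 bases except that of *Sct*, with 209, since the 41 bases nearest this start fall inside the span RefSeq gives the gene.
Gcg: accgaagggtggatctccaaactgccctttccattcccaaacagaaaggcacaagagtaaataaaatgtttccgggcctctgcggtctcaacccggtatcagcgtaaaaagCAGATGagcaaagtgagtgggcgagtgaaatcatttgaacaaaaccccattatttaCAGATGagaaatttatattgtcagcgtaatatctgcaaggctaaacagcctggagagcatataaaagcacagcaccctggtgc
Cck: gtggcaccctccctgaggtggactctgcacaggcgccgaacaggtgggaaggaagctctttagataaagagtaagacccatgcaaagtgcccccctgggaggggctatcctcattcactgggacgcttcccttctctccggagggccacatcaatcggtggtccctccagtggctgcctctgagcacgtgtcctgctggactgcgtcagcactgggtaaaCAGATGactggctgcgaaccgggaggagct
Sct: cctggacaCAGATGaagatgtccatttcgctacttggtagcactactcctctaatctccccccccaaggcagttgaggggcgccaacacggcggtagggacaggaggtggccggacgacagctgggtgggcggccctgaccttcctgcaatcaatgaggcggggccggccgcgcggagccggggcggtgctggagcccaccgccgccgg
Tac1: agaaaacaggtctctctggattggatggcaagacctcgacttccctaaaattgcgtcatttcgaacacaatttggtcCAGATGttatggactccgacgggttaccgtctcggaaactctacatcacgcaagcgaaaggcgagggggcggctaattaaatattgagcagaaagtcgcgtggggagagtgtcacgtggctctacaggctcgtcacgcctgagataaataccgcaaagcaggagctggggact
Chgb: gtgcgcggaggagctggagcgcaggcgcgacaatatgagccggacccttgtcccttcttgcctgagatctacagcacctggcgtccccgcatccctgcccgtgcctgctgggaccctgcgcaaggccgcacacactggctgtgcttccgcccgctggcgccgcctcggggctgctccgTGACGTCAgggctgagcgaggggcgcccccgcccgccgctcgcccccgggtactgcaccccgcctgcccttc
Counted back from the start that each RefSeq window was built on, which for *Sct* lies inside the gene's span, CAGATG begins at -139 and -83 in *Gcg*, at -30 in *Cck*, at -242 in *Sct* and at -173 in *Tac1*, and TGACGTCA begins at -72 in *Chgb*. The 4 genes with CAGATG had log2 changes of 0.76 to 1.21 in the 4-OHT DMSO libraries, and the other 6 had changes of 0.74 to 1.48.

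A wider list of 85 further enteroendocrine genes, grouped by role, was less uniform. Only 44 of them were high enough to be tested, and 23 were called higher and 8 lower, where 16.7% of all tested genes were called lower. Of the 44, 16 were under 1 FPKM in some library of the comparison, and 12 of the 23 higher calls were among these, so a number of them entered the test through their 4-OHT DMSO values. Of the 28 at 1 FPKM or more in all 4 libraries, 11 were called higher (39.3%) and 8 lower (28.6%), against 24.7% and 16.5% of all genes at that level. The median log2 change of the 44 was 0.45.

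Among 7 tested transcription factors of the lineage, *Foxa1*, a forkhead factor active in secretory progenitors, rose the most, from 7.11 and 7.45 to 26.3 and 22.4 FPKM (log2 change of 1.61 ± 0.11, adjusted p = 0.000687 by limma). *Atoh1*, which starts the secretory fate upstream of *Neurog3*, rose from 6.64 and 8.81 to 15.9 and 15.6 FPKM, and *Sox4* and *Insm1* were also called higher. *Insm1* would not have entered the test without the libraries labelled 4-OHT, so its call adds no support. *Hopx* fell from 87.2 and 76.9 to 48.0 and 51.3 FPKM and *Mnx1* was also called lower. *Hopx* is known in the gut as a marker of reserve stem cells, and *Mnx1* as a factor of motor neurons and islet cells. The 13 other factors, among them *Pax4*, *Pax6* and *Isl1*, were too low to be tested.

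Of 14 further hormone genes, 6 were tested and 4 were called higher. Of the 4 genes at 1 FPKM or more in all 4 libraries of the comparison, 2 were called higher (50%). Of all genes at that level 24.7% were. *Sst*, encoding somatostatin of D cells, rose from 28.8 and 28.8 to 54.9 and 81.4 FPKM (log2 change of 1.19 ± 0.18, adjusted p = 0.00597 by limma). *Nts*, encoding neurotensin, rose from 11.5 and 9.11 to 22.2 and 27.5 FPKM (1.20 ± 0.15, adjusted p = 0.00322, limma). *Iapp*, encoding amylin, rose from 0.667 and 1.07 to 3.33 and 4.33 FPKM (1.37 ± 0.18, adjusted p = 0.00369, limma). *Ucn3*, at 0.44 and 0.41 against 1.24 and 1.25 FPKM, was also called. It entered the test through libraries labelled 4-OHT alone, so its call adds no support. *Ghrl*, encoding ghrelin, was 11.0 and 8.05 against 13.5 and 13.8 FPKM and missed the threshold (adjusted p = 0.0557, limma). *Pyy*, encoding the L cell hormone peptide YY, was 8.11 and 5.18 against 6.91 and 3.78 FPKM, with overlapping groups (log2 change of -0.29 ± 0.29, adjusted p = 0.462, limma). *Gcg*, also an L cell hormone gene, had risen. Whether the changes of *Gcg* and *Pyy* differ was not tested.

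The serotonin genes split. *Tph1* rose with the vesicular transporter *Slc18a1*, which went from 0.902 and 0.988 to 2.22 and 2.53 FPKM. *Slc18a1* would not have entered the test without the libraries labelled 4-OHT, so its higher call adds no support. Of the 8 genes of serotonin synthesis and handling other than *Tph1*, 5 were called lower, where 16.7% of all tested genes were. Which cells these 5 falls came from was not tested. *Ddc*, the enzyme after TPH1 in the pathway and also present in enterocytes, fell from 17.5 and 15.5 to 8.38 and 7.44 FPKM (log2 change of -0.97 ± 0.10, adjusted p = 0.00182 by limma). *Slc6a4*, the serotonin transporter that enterocytes use for uptake, fell from 5.19 and 5.56 to 2.36 and 2.29 FPKM (-0.94 ± 0.10, adjusted p = 0.00205, limma). *Pts*, which makes a precursor of the cofactor tetrahydrobiopterin, fell from 8.18 and 7.62 to 4.32 and 4.4 FPKM (-0.73 ± 0.10, adjusted p = 0.00354, limma). *Maob*, an amine-degrading oxidase, fell the most of the wider list, from 33.3 and 32.8 to 3.65 and 3.85 FPKM (-2.84 ± 0.08, adjusted p = 0.000256, limma), and *Maoa* was also called lower.

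Granin and prohormone-processing genes were tested in 9 cases, and 4 rose and 0 fell. Over all tested genes 24.5% were called higher and 16.7% lower. *Cpe*, the carboxypeptidase that trims prohormones, rose from 8.81 and 7.94 to 14.9 and 15.0 FPKM, and *Pcsk1*, the convertase that cuts proglucagon to GLP-1, from 3.20 and 3.37 to 4.47 and 4.63 FPKM. *Scg2* and *Resp18* were the other 2 of the 4. Under both other scalings tried, 2 of the 9 were called higher. Of 12 vesicle release genes tested, 8 rose and *Rab3a* fell. Of these 12, 9 were under 1 FPKM in some library of the comparison, 7 of the 8 that rose among them. Of the 3 at 1 FPKM or more in all 4 libraries, 1 was called higher and 1 lower (33.3% each). Of all genes at that level 24.7% were called higher and 16.5% lower. *Syt7*, a calcium sensor of exocytosis, went from 0.831 and 0.323 to 3.77 and 4.31 FPKM (log2 change of 1.69 ± 0.25, adjusted p = 0.00507 by limma). Among nutrient sensors, *Ffar4*, a receptor for long-chain fatty acids, had the largest fitted log2 rise of the wider list. It went from 2.25 and 3.33 to 15.9 and 13.7 FPKM (2.07 ± 0.18, adjusted p = 0.00125, limma). *Ffar2*, a receptor for short-chain fatty acids, was the other one tested, at 0.198 and 0.159 against 1.06 and 1.36 FPKM. *Ffar2* entered the test through the 4-OHT DMSO libraries alone, so its higher call adds no support. The 14 others were too low to be tested. In the ratio of mean FPKM, with no 1 added, *Syt7* (7.0) and *Ffar2* (6.79) stood above *Ffar4* (5.31). *Syt7* too was tested only through libraries labelled 4-OHT.

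**Figure D4:**
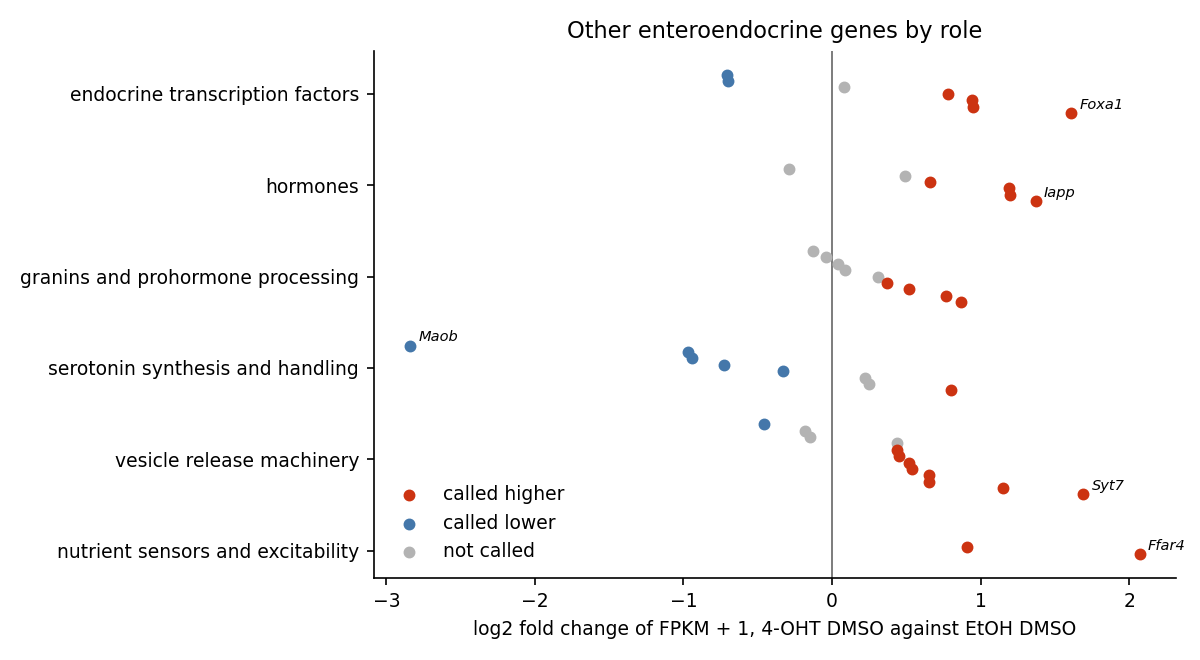
Log2 fold change of FPKM + 1 (horizontal axis) of the 44 tested genes of the wider enteroendocrine list in 4-OHT DMSO against EtOH DMSO, 1 point per gene in 6 roles, red where limma called the gene higher, blue lower and grey neither. The serotonin genes are the only role in which lower calls (5) outnumber higher calls (1), and *Maob* lies at -2.84.

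The receptors for the hormones were nearly absent. All 12 were under 1 FPKM in every library, and *Cckar*, *Cckbr*, *Sctr*, *Tacr1*, *Tacr2* and *Htr3a* were listed at 0 in all. Of 4 enzymes that break the hormones down, 3 were called lower, where 16.7% of all tested genes were. Of the 8 enterocyte markers tested, 3 were also called lower and 3 higher. Which cells the falls of the 3 enzymes came from was not tested. *Dpp4*, which inactivates GLP-1 and GIP, went from 18.4 and 20.5 to 13.2 and 14.7 FPKM (log2 change of -0.45 ± 0.10, adjusted p = 0.0162 by limma), *Mme*, or neprilysin, from 2.98 and 3.22 to 0.534 and 0.465 FPKM, and *Enpep* from 32.1 and 36.0 to 8.37 and 7.91 FPKM.

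EtOH Nec-1 against EtOH DMSO asks what the RIPK1 inhibitor does without 4-OHT. None of the 10 genes passed limma's test there (0 of 10, and 2 of 10 at an unadjusted p under 0.05, *Gcg* and *Neurod1*). Over all genes 0.173% were called higher and 0.0472% lower. None of the 44 wider genes was called either, with 6 at an unadjusted p under 0.05. The shares of all genes under that unadjusted p are not given, here or in later comparisons, so these counts have no background beside them. The largest fitted log2 difference of the 10 was that of *Neurod1*, at 1.92 and 2.62 FPKM against 1.38 and 1.44 (log2 change of 0.43 ± 0.15, adjusted p = 0.338, limma). *Gcg* was 70.7 and 68.5 FPKM against 54.8 and 51.7, a ratio of means of 1.31 (0.38 ± 0.10, adjusted p = 0.254, limma). *Neurog3* had the lowest fitted value, at 0.566 and 0.767 FPKM against 1.17 and 1.05 (-0.34 ± 0.17, adjusted p = 0.447, limma). In plain FPKM its ratio of means was 0.603 and that of *Neurod1* 1.61, and both Nec-1 libraries lay below both DMSO libraries for *Neurog3* and above them for *Neurod1*.

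For 5 genes, *Chga*, *Chgb*, *Neurod1*, *Gcg* and *Tac1*, both EtOH Nec-1 libraries were above both EtOH DMSO libraries, as they were for 10.5% of all genes tested. For *Sct*, at 10.5 and 10.9 FPKM against 11.8 and 13.1, and for *Neurog3* they were below, as they were for 39.1%. *Gip* was 135 and 159 FPKM against 157 and 145, *Cck* 49.7 and 61.4 against 42.4 and 54.6, and *Tph1* 2.13 and 2.16 against 1.82 and 2.14, with overlap in all 3. The median log2 difference of the 10 was 0.16, against -0.09 over all genes.

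The remaining comparisons rest on the single 4-OHT Nec-1 library, so sizes are given first, with no replicate check of that library, over genes whose mean across the 3 libraries reached 1 FPKM. The limma values that follow them assume that the lone library varies like the other groups. Against the EtOH Nec-1 libraries, which asks whether 4-OHT organoids still differ when RIPK1 is inhibited, all 10 genes were higher than in both, where 49.9% of all genes were above both and 38.8% below both. Ratios to the mean ran from 1.59 for *Gcg* (111 FPKM against 70.7 and 68.5) to 3.70 for *Neurog3* (2.47 FPKM against 0.566 and 0.767). On the scale of log2(FPKM + 1) none of the 10 reached 1 log2 unit against both libraries, as 6.18% of all genes did in either direction. *Tph1* came closest, at 5.21 FPKM against 2.13 and 2.16 (log2 differences of 0.99 and 0.98). In plain FPKM *Tph1* stood at 2.45 and 2.42 times these libraries and *Neurog3* at 4.36 and 3.22 times, and with a pseudocount of 0.1 the count past 1 log2 unit was 2. As an alternative, with the spread pooled from the other groups, limma called 8 of the 10 and 21.1% of all genes. *Neurod1* (adjusted p = 0.0930, limma) and *Cck* (adjusted p = 0.0538, limma) were not among the 8.

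**Figure D5:**
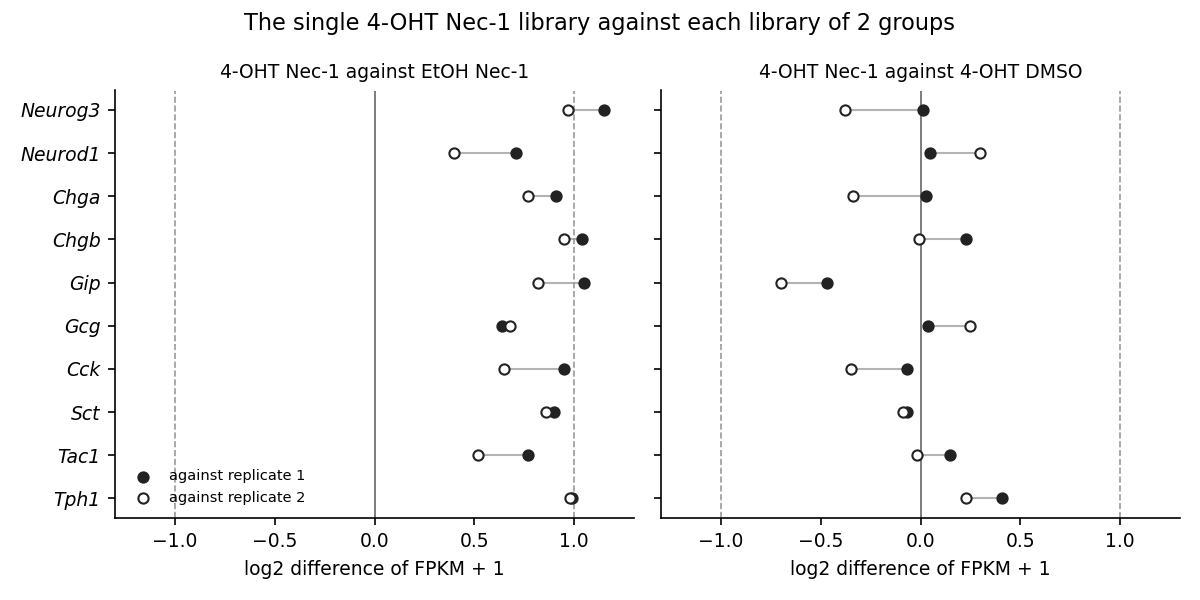
Log2 difference of FPKM + 1 between the single 4-OHT Nec-1 library and each EtOH Nec-1 library (left) or each 4-OHT DMSO library (right) for the 10 genes, filled circles for replicate 1 and open circles for replicate 2, with dashed lines at 1 log2 unit. All points on the left are above 0, from 0.40 (*Neurod1*) to 1.15 (*Neurog3*), while those on the right run from -0.70 (*Gip*) to 0.41 (*Tph1*).

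Against the 4-OHT DMSO libraries, which asks what Nec-1 changes in 4-OHT organoids, the 10 genes lay on both sides. *Gcg*, *Neurod1* and *Tph1* were above both 4-OHT DMSO libraries, as 24.5% of all genes were, and *Gip*, *Cck* and *Sct* below both, as 50.6% were. *Chga*, *Chgb*, *Neurog3* and *Tac1* lay between them. None reached 1 log2 unit against both, as 1.98% of all genes did, and limma with the pooled spread called none of the 10 and 1.84% of all genes (1 of the 10 at an unadjusted p under 0.05). *Gip* differed the most, at 281 FPKM against 390 and 458, or 66.3% of their mean (log2 differences of -0.47 and -0.70, adjusted p = 0.168 by limma with the pooled spread). It still stood at 1.91 times the mean of the EtOH Nec-1 libraries. *Tph1* was 5.21 FPKM against 3.69 and 4.30 (0.41 and 0.23). The median log2 difference of the 10 was -0.01, against -0.09 over all genes.

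Of the wider list in the same comparison, 1 of 44 genes was past 1 log2 unit, as 1.98% of all genes were in either direction. This gene was *Maob*, at 9.70 FPKM against 3.65 and 3.85, and it remained below the 33.4 and 32.9 FPKM of the EtOH Nec-1 libraries. *Ddc* was 17.2 FPKM against 8.38 and 7.44, and 7 of the 8 serotonin genes other than *Tph1* were above both 4-OHT DMSO libraries. Of all genes 24.5% were above both and 50.6% below both. *Foxa1* was 15.4 FPKM against 26.3 and 22.4, and *Atoh1* 9.60 FPKM against 15.9 and 15.6. *Sst* was 53.2 FPKM against 54.9 and 81.4, *Nts* 25.6 against 22.2 and 27.5, and *Iapp* 2.82 against 3.33 and 4.33.

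By likeness over the 7 libraries, the genes outside all lists that followed the mean profile of the 10 most closely were *Ankib1*, *Spr*, *Bmyc*, *Slc35e4* and *Fam214b*, with Pearson's r of 0.9984, 0.9970, 0.9961, 0.9958 and 0.9955. *Bmyc*, for example, was 9.34 and 9.74 FPKM with EtOH DMSO, 10.2 and 10.9 with EtOH Nec-1, 25.1 and 31.4 with 4-OHT DMSO and 29.6 with 4-OHT Nec-1. The libraries share the 4-OHT step, which sets most of this profile. The value of r was over 0.9 for 15.6% of all tested genes and for 17 of the 44 wider genes. Some of the 44, such as *Ucn3* and *Syt7*, were tested only through libraries labelled 4-OHT, which can raise this count. Within the 10, r with the common profile ran from 0.873 for *Neurod1* to 0.993 for *Chgb*, each gene being part of that mean.

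Scaling bears on the size of these rises and not on their direction. The median log2 change of all genes between 4-OHT DMSO and EtOH DMSO was 0.08 as deposited and -0.08 once each library was centred on its median, which turned 3117 higher and 2120 lower calls into 2213 and 3187. All 10 enteroendocrine genes were called higher under either scaling, with a median of 0.74 after centring. The wider list then had 17 higher and 8 lower calls, with 4 rather than 8 higher calls among vesicle release genes, 2 rather than 4 among granin and processing genes and 5 rather than 7 among goblet markers. The 7 libraries had FPKM sums of 450207 to 498712 and relative depths, read from the spacing of the lowest values, of 0.85 to 1.03, where the first library of EtOH DMSO is 1. Fragment counts are not known, so no counting interval is given.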

How the data were processed

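Bulk RNA-seq was analysed from 7 organoid libraries in 4 groups, named by the sample titles. The authors extracted total RNA, prepared libraries with the NEBNext Ultra kit, sequenced them on an Illumina instrument and deposited FPKM per Ensembl mouse gene. The submitters' processing notes list HISAT2 2.1.0, StringTie 1.3.3b and mm10, and do not state each step. FPKM hide the fragment counts, so depth is known only relatively. One table repeated 2 columns of the others (within 1e-05 FPKM), and 0 columns were left unmapped. The 2 CUT&Tag samples were not analysed here.

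Symbols came from a table of gene names (54723 of 54838 identifiers matched). Promoter sequences came from RefSeq (GRCm38.p6). The test was limma 3.58.1 in R 4.3.3 with a mean-variance trend on log2(FPKM + 1), over the 12702 genes that reached 1 FPKM in 2 or more libraries. Each group had 1 mean and the 7 libraries shared 1 estimate of spread (3 residual degrees of freedom). Adjusted p-values (Benjamini-Hochberg) under 0.05 were called. For the single 4-OHT Nec-1 library the rule was a distance of at least 1 log2 unit from each library of the other group. The script was tested on simulated data. Python 3.11.15, numpy 2.4.6, pandas 2.3.3 and matplotlib 3.10.9 were used.

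The genes and lists were chosen with earlier results of these data known. Named were all 10 genes in each comparison, *Mettl3*, *Sst*, *Ghrl*, *Pyy*, *Nts* and *Iapp*, the 5 largest called rises and the 5 largest called falls of the wider list, the 5 genes outside all lists most like the 10, and each marker list by its sum, its genes at 0 and its most abundant gene. Other genes named within a role or list were chosen after their values were seen. The most abundant list genes were *Tff3* (goblet), *Lyz1* (Paneth), *Slc12a2* (stem), *Fabp1* (enterocyte), *S100b* (neuron and glia), *Kit* (mast cell), *Iapp* (islet) and *Tff1* (gastric), and that of the tuft list is not reported here. Alternatives were another scaling, filter, pseudocount, trend, set of libraries or replicate block, and leaving out each library.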

Additional observations from a re-analysis of the deposited data

Results flagged for a closer look

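*Sst*, encoding somatostatin, moved in opposite directions with Nec-1 in every pairing of libraries. In EtOH organoids it was 36.1 and 34.2 FPKM with Nec-1 against 28.8 and 28.8 with DMSO, a mean log2 difference of 0.28. In 4-OHT organoids it was 53.2 FPKM with Nec-1 against 54.9 and 81.4 with DMSO, a mean log2 difference of -0.32. The gap between these differences was -0.60 and was not tested. It rests on the single 4-OHT Nec-1 library, which lay only 0.04 log2 units below the first 4-OHT DMSO library. The larger difference, of -0.60, was against the second, the library that stood apart in gastric markers. None of the 10 enteroendocrine genes moved in this way. The pattern was not particular to *Sst*, as other listed genes also moved up and then down in every pairing. Among them were *Resp18* of the wider list (mean log2 differences of 0.39 and -0.29) and the secretory markers *Agr2* (0.41 and -0.27) and *Mmp7* (0.33 and -0.68). The share of all genes that did so was not counted.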

How the results depend on the processing

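All 10 enteroendocrine genes were called higher in 4-OHT DMSO against EtOH DMSO under every alternative in which all were tested and no EtOH DMSO library was left out. The count was 9 with 1 FPKM required in every library, which removed *Neurog3*, and 9 to 10 without 1 library. The replicate numbers were not found to pair the samples: the correlations of same-numbered deviations between groups were 0.006, -0.040 and -0.012. With the replicate block 10 of the 10 and 26 of the 44 wider genes were called, and 4697 rather than 5237 of all genes. The wider list gave 31 calls, 19 with 1 FPKM required in every library, where fewer genes were tested, and 21 to 23 without 1 library. In EtOH Nec-1 against EtOH DMSO none of the 10 or the 44 was called under any alternative run, where limma called 8 to 87 of all genes. There the signs of small differences turned: *Gip* (-0.04) was 0.05 with median centring, 0.06 with upper quartile scaling and -0.16 to 0.07 without 1 library, *Pyy* (-0.09) was 0.01 under both scalings and -0.37 to 0.19 without 1 library, *Tph1* was -0.00 to 0.16 and *Ghrl* -0.08 to 0.33 without 1 library. *Pyy* in 4-OHT DMSO against EtOH DMSO was -0.65 to 0.08 without 1 library. None of these was called, and the cause was not tested. The 10 genes past 1 log2 unit in 4-OHT Nec-1 against EtOH Nec-1 numbered 0, 2 with a pseudocount of 0.1, 0 to 3 without 1 EtOH Nec-1 library (3 without the second) and 8 by limma with the pooled spread, while against 4-OHT DMSO they numbered 0 under all alternatives. *Mettl3* (0.41) lost its call under both scalings, with only the 4 libraries, and without either EtOH DMSO library or the second 4-OHT DMSO library, and *Ghrl* gained one without the first EtOH DMSO library (adjusted p = 0.0271 by limma). Fragment counts are unknown, so the counting error of low values could not be given.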
